A study of Mus musculus with 27 samples.

Results

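Cyclins, cyclin-dependent kinases (CDKs) and their controls were followed through an in vitro differentiation of mouse embryonic stem cells toward gonadal progenitors and Sertoli-like cells. A list of 48 gene symbols was matched to the 48795 Ensembl genes of the files, and each symbol matched exactly 1 gene. The list holds 11 cyclins, 4 CDKs, 7 CDK inhibitors, 11 genes of the Rb and E2F families, 3 Cdc25 phosphatases, 3 replication genes, 7 mitotic genes and 2 Myc genes. RNA-seq covered 9 groups of 3 libraries each. All groups came from a single clone of XY mouse embryonic stem cells on a C57BL/6 x CBA F1 background. These cells carried the Tesco-CFP reporter, which is driven by a testis enhancer of Sox9, and rtTA at the R26 locus, which lets doxycycline switch on introduced genes. ESC were kept in 2i/LIF (PD0325901, CHIR99021 and leukemia inhibitory factor), with a passage in serum replacement and LIF before differentiation, and the labels do not say from which of these cultures the ESC RNA was taken. EpiSC, the epiblast-like stage, were grown for 60 h in Activin A (20 ng/ml), bFGF (12 ng/ml) and 1% serum replacement. M, the early mesoderm stage, followed after 36 h with LY294002, which blocks phosphatidylinositol 3-kinase, at 10 µM, together with 20 ng/ml bFGF and 10 ng/ml BMP4. IM1 to IM5 were 5 intermediate mesoderm media of equal duration. IM1 held only 20 ng/ml BMP4 with 5 ng/ml bFGF, which the other media held too. IM3 added 100 nM retinoic acid, as did the remaining media. IM2 was IM3 with 10 ng/ml Activin A, IM4 was IM3 with 0.3 µM CHIR99021, which inhibits GSK3, and IM5 held both additions. iSLC, the induced Sertoli-like cells, were IM3 cells infected with lentiviruses for doxycycline-inducible Nr5a1 and Dmrt1. They were moved to a Sertoli medium that held doxycycline, EGF, FSH, FGF9, prostaglandin D2, testosterone and Activin A, and were sorted for CFP. Virus, factors, medium, sort and time therefore change together between iSLC and IM3 and cannot be told apart.

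A cell enters S phase when D-type cyclins with CDK4 or CDK6, and then E-type cyclins with CDK2, phosphorylate the Rb family of pocket proteins and release E2F transcription factors, which switch on replication genes. A-type and B-type cyclins with CDK1 and CDK2 carry the cell through replication and mitosis. The INK4 inhibitors block CDK4 and CDK6, and the CIP/KIP inhibitors, among them the p53 target Cdkn1a (p21), act on cyclin-CDK complexes more widely. Mouse embryonic stem cells are known for a short G1 phase, and Sertoli cells for leaving the cycle as they mature.

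The expected counts summed to 35923040 to 84876603 per library. The labelled stages were checked with TPM, a level per transcript length that sums to the same total in every library, of marker genes. Nr5a1 averaged 93.8 TPM and Dmrt1 averaged 213 TPM in iSLC, and Nr5a1 averaged at most 0.13 TPM in every other group. Dmrt1 averaged 21.6 TPM in ESC, 8.89 TPM in EpiSC and at most 0.997 TPM in M and the IM groups. Nanog (358 TPM in ESC), Fgf5 (119 TPM in EpiSC), T (502 TPM in M) and Wt1 (149 TPM in IM3) were highest in the groups named. Pax2, a marker of intermediate mesoderm, averaged at most 0.33 TPM in all 9 groups. Of 5 Sertoli markers Gata4 averaged 161 TPM, Sox9 24.8, Dhh 1.86, Cst9 1.5 and Amh 0.56 TPM in iSLC. In IM3, Gata4 averaged 340 TPM, Sox9 40, Dhh 0.7, Cst9 4.41 and Amh 0.44 TPM, so Gata4, Sox9 and Cst9 were lower in iSLC. The summed TPM of 6 red blood cell genes ranged from 11.7 to 91 in ESC, M, IM3 and IM4 libraries and from 1.57 to 4.54 over those of EpiSC, IM1, IM2, IM5 and iSLC. The trend of counts with GC content (log2, GC-rich minus GC-poor genes) split the groups in the same way, from -0.551 to -0.104 in the former and from -0.101 to 0.661 in the latter, so the sides nearly meet. M and IM3, IM3 and IM4, and IM2 and IM5 each lie on the same side of this split, and the other pairs of groups compared lie across it. Its part in their results was not tested beyond a GC offset. The summed TPM of 4 endothelial genes was 1.01 to 1.52 in M, 88.1 to 98.2 in IM1, 28.7 to 34 in IM3 and 26.2 to 28.8 in iSLC. In iSLC this sum was mostly Emcn (25 TPM), while Cdh5 (1.72 TPM) and Tie1 (0.0567 TPM) were near 0. The summed TPM of 3 leukocyte genes ranged from 2.7 to 9.59 over all libraries.

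All 48 genes passed the low-count filter, and all 48 differed over the 9 groups (edgeR, adjusted p at most 0.05), as did 96.4% of the 20839 genes tested. Between pairs of groups, a gene was called differentially expressed (DE) if it changed at least 2-fold with an adjusted p no higher than 0.01 and a normalized read count no lower than 100. From ESC to EpiSC, 0 of 48 rose and 1 fell, where 3.75% of all genes tested rose and 4.32% fell. From EpiSC to M, 4 rose and 6 fell, where 6.79% and 7.72% of all genes did. From M to IM1, 7 rose and 4 fell (all genes, 9.72% and 5.94%), and from M to IM3, 5 rose and 4 fell (all genes, 9.26% and 5.66%). With retinoic acid, 0 rose and 1 fell in IM3 against IM1 (all genes, 2.62% and 3.72%). With Activin A, 2 rose and 0 fell in IM2 against IM3 (all genes, 2.46% and 1.34%), and 2 rose and 0 fell in IM5 against IM4 (all genes, 2.63% and 1.46%). With CHIR99021, 0 of 48 were DE in IM4 against IM3 (all genes, 0% higher and 0.101% lower), and 0 of 48 in IM5 against IM2 (all genes, 0.0432% higher and 0.192% lower). Without the fold minimum these counts were 1 and 6, at an unadjusted p under 0.05 they were 10 and 17, and by the Wald test of DESeq2 both were 0. From IM3 to iSLC, 6 rose and 12 fell, where 10.3% and 8.92% of all genes did. This pair of groups lies across the GC split, and with a GC offset 15 of the 48 were DE, 7 of them higher. With an effective length offset 10 were DE from EpiSC to M, 3 of them higher. The list was better covered than the genome: 46 or 47 of the 48 genes met the count minimum in each comparison, against 12669 to 13009 of the 20839 genes tested. Of genes that met it, 30.9% were DE in iSLC against IM3, 25.1% in IM1 against M and 13.3% in EpiSC against ESC. The median log2 fold change of the 48 genes was -0.32 in iSLC against IM3, -0.20 in IM1 against M and between -0.15 and 0.07 in the other comparisons, and that of all genes lay between -0.06 and 0.01. In bulk RNA, fewer cells of a kind and less RNA per cell cannot be told apart.

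**Figure D1:**
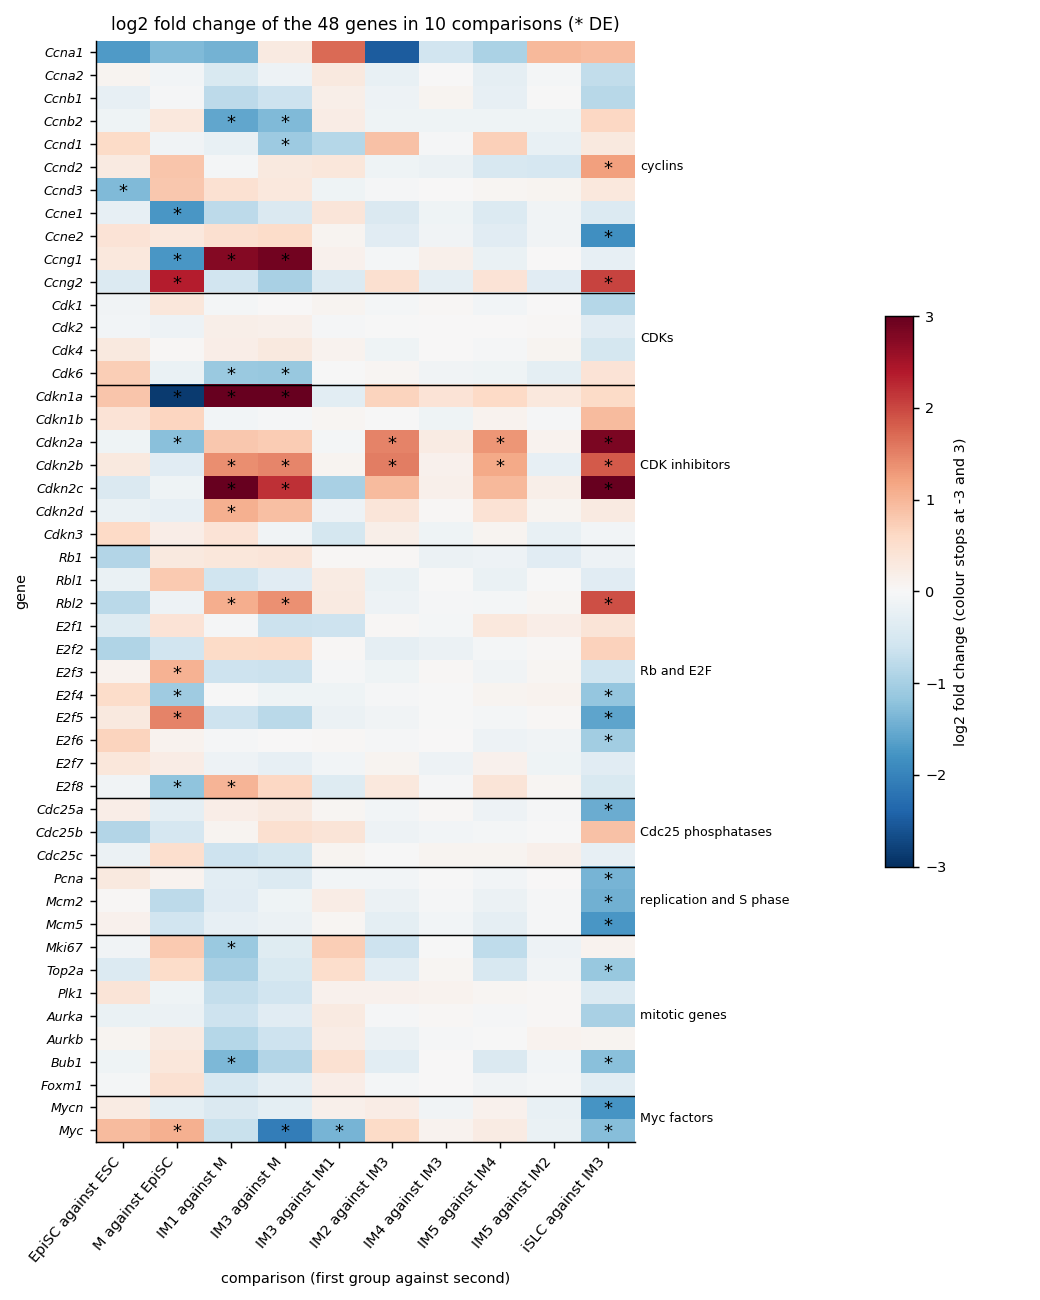
Log2 fold change of each of the 48 genes (rows, grouped by role) in each of the 10 comparisons (columns), from the edgeR fit; an asterisk marks a DE gene. The column of iSLC against IM3 holds 18 asterisks, while those of IM4 against IM3 and IM5 against IM2 hold 0.

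Levels averaged over the members of a role, as log2(TPM + 1), give the broad course. CDK inhibitors stood at 3.51 ± 0.08 (SD, n = 3) in ESC, 3.18 ± 0.017 in M, 4.36 ± 0.039 in IM3 and 5.52 ± 0.02 in iSLC, their lowest level being in M and their highest in iSLC. Replication genes stood at 8.16 ± 0.037 in ESC, 7.88 ± 0.021 in IM3 and 6.35 ± 0.047 in iSLC. Mitotic genes were highest in M, at 6.99 ± 0.098, and lowest in iSLC, at 6.11 ± 0.04, with IM1 (6.24 ± 0.03) the nearest to it. Cyclins and CDKs moved little on this scale, from 5.50 ± 0.017 in EpiSC to 5.80 ± 0.01 in iSLC for cyclins and from 6.77 ± 0.0065 in iSLC to 7.21 ± 0.016 in EpiSC for CDKs.

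**Figure D2:**
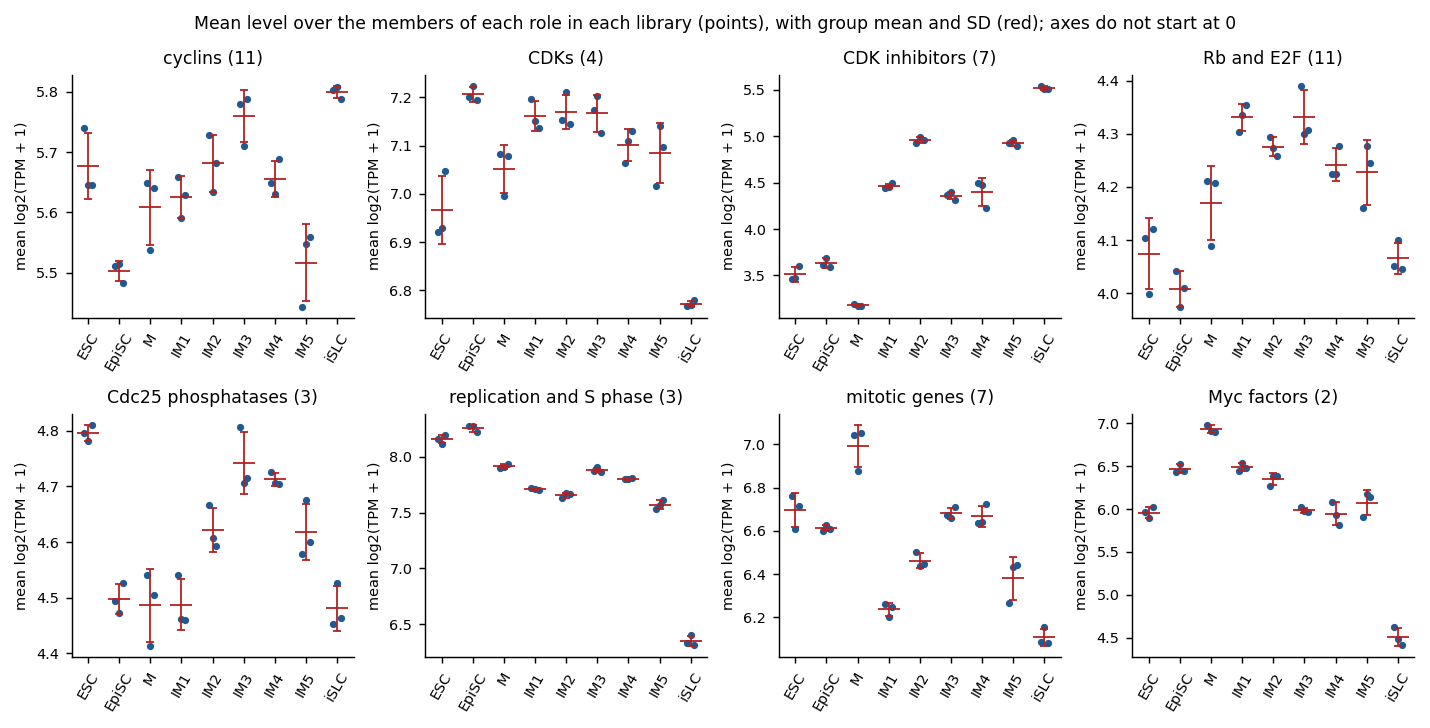
Mean of log2(TPM + 1) over the members of each role (vertical axis, which does not start at 0) in each library (blue points) of the 9 groups (horizontal axis), with group mean and SD in red. CDK inhibitors reach their highest level in iSLC (5.52 ± 0.02), where the replication genes are at their lowest (6.35 ± 0.047).

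The D-type cyclins, which partner CDK4 and CDK6 in G1, differed in their mix between the groups. Ccnd3 (GRCm38 chr17:47505051-47599691) TPM was 229.9, 224 and 248 in ESC, 94.2, 92 and 88.9 in EpiSC and 165, 170 and 166 in M. Ccnd3 TPM was then 245, 256 and 239 in IM1, 223, 234 and 235 in IM2, 236, 264 and 238 in IM3, 238, 254 and 238 in IM4, 257, 219.5 and 231 in IM5 and 310.1, 288 and 299 in iSLC. It was lowest in EpiSC and highest in iSLC, and neither group's libraries overlapped those of any other group. Ccnd3 fell from ESC to EpiSC (log2 fold change -1.32 ± 0.067 (SE), adjusted p = 4.58e-15), the only DE gene of the 48 in that comparison. Ccnd1 TPM was 87.2, 79.9 and 89.4 in ESC, 119.7, 125 and 121 in EpiSC and 124, 114 and 119 in M. Ccnd1 TPM was then 119, 99.6 and 110.3 in IM1, 114, 113 and 122 in IM2, 66.8, 63.5 and 63.7 in IM3, 63.1, 57.9 and 59.2 in IM4, 84.8, 103 and 102 in IM5 and 81.5, 76.5 and 74 in iSLC. The 2 lowest groups, IM4 and IM3, held retinoic acid without Activin A, and their libraries lay below all others, those of IM5, IM2 and IM1 included. Ccnd1 fell from M to IM3 (log2 fold change -1.09 ± 0.053 (SE), adjusted p = 4.69e-16). Its log2 fold change was -0.86 in IM3 against IM1, 0.88 in IM2 against IM3 and 0.71 in IM5 against IM4, under the fold minimum in all 3 comparisons although each adjusted p passed. Ccnd2 TPM was 18.4, 14.7 and 16.9 in ESC, 19, 19.6 and 19.1 in EpiSC and 41.8, 34.7 and 43.5 in M. Ccnd2 TPM was then 45.4, 43.5 and 39 in IM1, 51.1, 46.6 and 52 in IM2, 60.7, 54.5 and 58.5 in IM3, 53.9, 42.6 and 47.2 in IM4, 26.6, 40.2 and 37.7 in IM5 and 139, 125 and 129 in iSLC. All 3 iSLC libraries lay above every other library, and Ccnd2 rose from IM3 to iSLC (log2 fold change 1.23 ± 0.056 (SE), adjusted p = 9.7e-17). It was also the only gene of the 48 with an interaction of Activin A and CHIR99021 (edgeR, adjusted p at most 0.05), which 0.624% of all genes tested showed. Its log2 fold change with CHIR99021 was -0.17 without Activin A and -0.51 with it, and the interaction was not called in 8 of the 12 fits that left out a single library. As a share of the summed TPM of the 3 genes, Ccnd1 made up 25.4% ± 0.47 (SD, n = 3) in ESC, 52.4% ± 0.85 in EpiSC and 15.2% ± 0.45 in iSLC. Ccnd2 went from 4.96% ± 0.47 in ESC to 25.8% ± 0.37 in iSLC, and Ccnd3 was the largest share in every group other than EpiSC. Of the exon bases of Ccnd1, 23.4% overlap a gene on the other strand, and the sources used here do not say if counting was stranded. The overlap is 7.9% for Ccnd2 and 4.1% for Ccnd3.

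**Figure D3:**
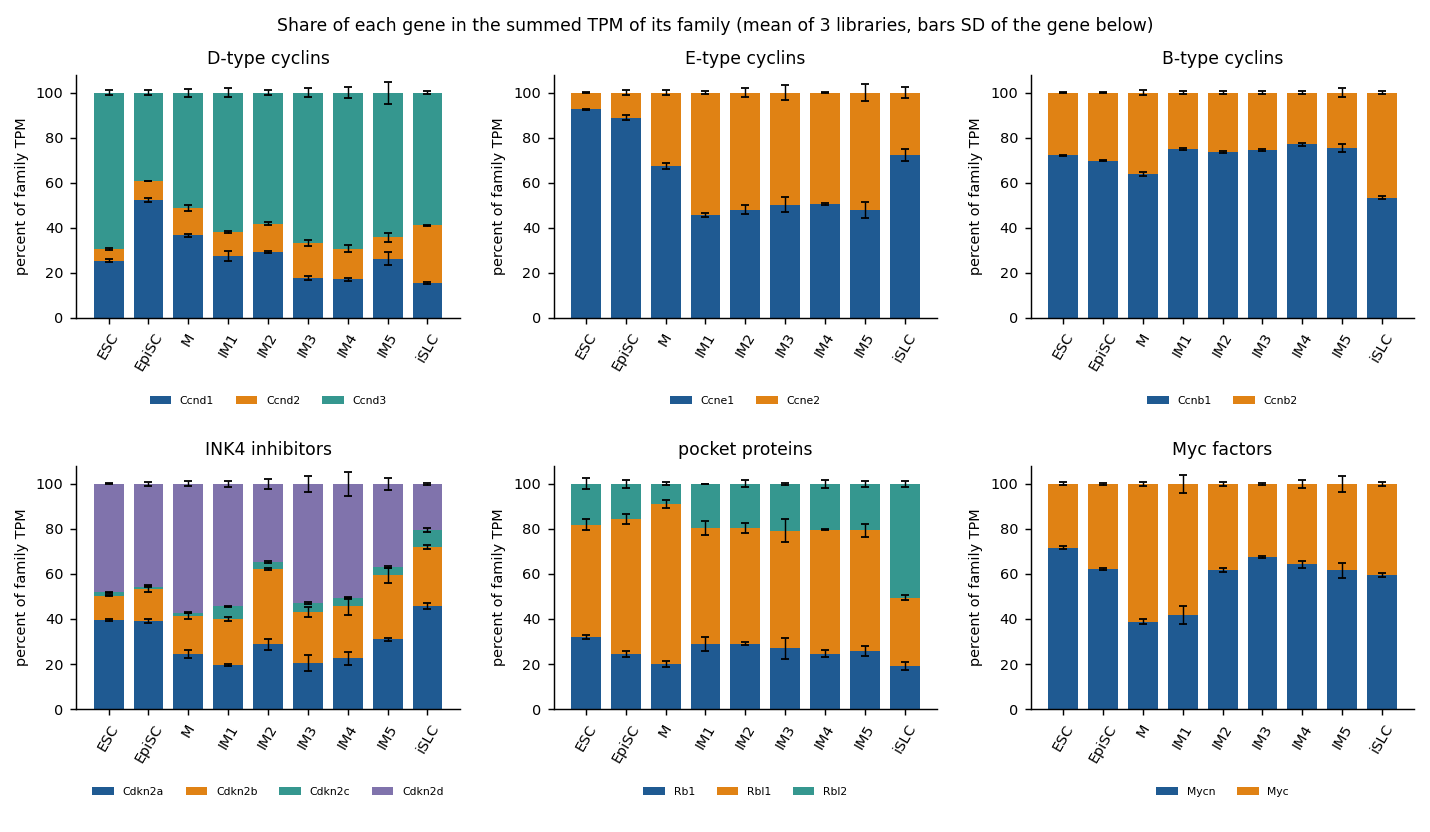
Share of each gene in the summed TPM of its family (vertical axis, percent) in the 9 groups (horizontal axis); coloured segments are means of 3 libraries, and each error bar is the SD of the share of the segment below it. Ccnd1 is the largest segment of the D-type cyclins in EpiSC (52.4% ± 0.85), Ccne2 grows from 7.45% ± 0.32 in ESC to 54.2% ± 0.79 in IM1, and Rbl2 is the largest pocket protein segment in iSLC (50.5% ± 1.3).

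The E-type cyclins, which activate CDK2 at the entry to S phase, are Ccne1 and Ccne2. Ccne1 TPM was 194, 187 and 191 in ESC, 155, 155 and 155 in EpiSC and 52.7, 46.7 and 49.4 in M. Ccne1 TPM was then 32, 29.5 and 29.2 in IM1, 31.8, 29.6 and 28.8 in IM2, 43.1, 42.5 and 39.5 in IM3, 37.1, 36.8 and 37.5 in IM4, 27.1, 25 and 27.6 in IM5 and 33.2, 32.1 and 29.8 in iSLC. ESC stood above EpiSC, EpiSC above M and M above all IM and iSLC libraries, without overlap. Ccne1 fell from EpiSC to M (log2 fold change -1.75 ± 0.053 (SE), adjusted p = 2.82e-20). Ccne2 TPM was 15.4, 15.8 and 14.8 in ESC, 21.4, 18.9 and 17.9 in EpiSC and 24.3, 22.6 and 25.6 in M. Ccne2 TPM was then 36.8, 36.1 and 34.6 in IM1, 34.1, 29.9 and 33.8 in IM2, 40, 38.2 and 45.6 in IM3, 36.1, 35.6 and 37.2 in IM4, 24.9, 29.7 and 32.7 in IM5 and 11.1, 12.1 and 12.9 in iSLC. It was highest in IM3, with the IM5 libraries reaching down to those of M. Ccne2 fell from IM3 to iSLC (log2 fold change -1.84 ± 0.075 (SE), adjusted p = 7.6e-18), where the libraries lay below those of all other groups. The share of Ccne1 in the summed TPM of this pair was 92.5% ± 0.32 in ESC, 67.2% ± 1.3 in M, 45.8% ± 0.79 in IM1 and 72.4% ± 2.6 in iSLC. Of the exon bases of Ccne2, 17.4% overlap the opposite gene Ints8.

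Of the A-type cyclins, Ccna2, which acts in S phase and G2, was present throughout and Ccna1, known from male germ cells, hardly at all. Ccna2 lay between 81.1 and 89.4 TPM in iSLC and between 134 and 154 TPM in IM3, the groups of its lowest and highest mean, and was not DE in any comparison. Genes on the other strand overlap 12.5% of the exon bases of Ccna2 and 10.1% of those of Ccna1. Ccna1 TPM was 2.03, 1.33 and 0.85 in ESC, 0.29, 0.55 and 0.35 in EpiSC and 0.13, 0.11 and 0.2 in M. Ccna1 TPM was then 0.12, 0.08 and 0.04 in IM1, 0.15, 0 and 0 in IM2, 0.37, 0.29 and 0.13 in IM3, 0.11, 0.14 and 0.37 in IM4, 0.1, 0.04 and 0.08 in IM5 and 0.4, 0.35 and 0.38 in iSLC. Every library outside ESC was at or under 0.55 TPM, and Ccna1 did not meet the count minimum in any comparison. The B-type cyclins, which activate CDK1 for mitosis, are Ccnb1 and Ccnb2. Ccnb2 TPM was 104, 101 and 99 in ESC, 90.5, 89.1 and 88.9 in EpiSC and 116, 119 and 121 in M. Ccnb2 TPM was then 43.1, 40.2 and 45.5 in IM1, 47.7, 45.9 and 49.1 in IM2, 55.1, 50.9 and 55.4 in IM3, 45, 48.7 and 49.3 in IM4, 43.1, 40.7 and 42.1 in IM5 and 77.8, 82.4 and 82.9 in iSLC. It fell from M to IM1 (log2 fold change -1.56 ± 0.058 (SE), adjusted p = 1.97e-18) and to IM3 (log2 fold change -1.33 ± 0.059 (SE), adjusted p = 6.23e-17), and its iSLC libraries lay above every IM library (log2 fold change 0.62 against IM3, under the fold minimum). Ccnb1 averaged 157 ± 10 TPM in IM3 and 92.7 ± 3.2 TPM in iSLC (log2 fold change -0.82 ± 0.048 (SE), adjusted p = 1.51e-14), also under the fold minimum. The share of Ccnb2 in the summed TPM of Ccnb1 and Ccnb2 was 25.5% ± 0.56 in IM3 and 46.6% ± 0.62 in iSLC.

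The G-type cyclins are not partners of the cycle's main CDKs: Ccng1 is a known target of p53, and Ccng2 of FoxO factors in resting cells. Ccng1 TPM was 91.8, 84.7 and 87.7 in ESC, 105, 105 and 111 in EpiSC and 35.3, 31.2 and 34.1 in M. Ccng1 TPM was then 251, 230.1 and 252 in IM1, 287, 260.1 and 263 in IM2, 295, 253 and 309 in IM3, 307, 313 and 313 in IM4, 247, 279.6 and 263 in IM5 and 243, 239 and 238 in iSLC. M stood far below all other groups and the IM and iSLC groups far above ESC and EpiSC. Ccng1 fell from EpiSC to M (log2 fold change -1.74 ± 0.056 (SE), adjusted p = 8.24e-20) and rose from M to IM1 (log2 fold change 2.76 ± 0.058 (SE), adjusted p = 1.12e-23) and to IM3 (log2 fold change 2.90 ± 0.058 (SE), adjusted p = 3.61e-24). These comparisons share the M libraries. Ccng2 TPM was 6.03, 6.64 and 6.1 in ESC, 5.05, 4.64 and 4.46 in EpiSC and 26.9, 22 and 25.4 in M. Ccng2 TPM was then 16.8, 17.7 and 19.4 in IM1, 20.3, 19.1 and 18.8 in IM2, 14.4, 13.8 and 15.5 in IM3, 11.6, 11.7 and 11.8 in IM4, 15.4, 15.2 and 13.6 in IM5 and 53.5, 57.7 and 54.5 in iSLC. It was lowest in EpiSC, rose to M (log2 fold change 2.35 ± 0.08 (SE), adjusted p = 2.85e-19) and rose again from IM3 to iSLC (log2 fold change 2.02 ± 0.075 (SE), adjusted p = 1.31e-18).

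**Figure D4:**
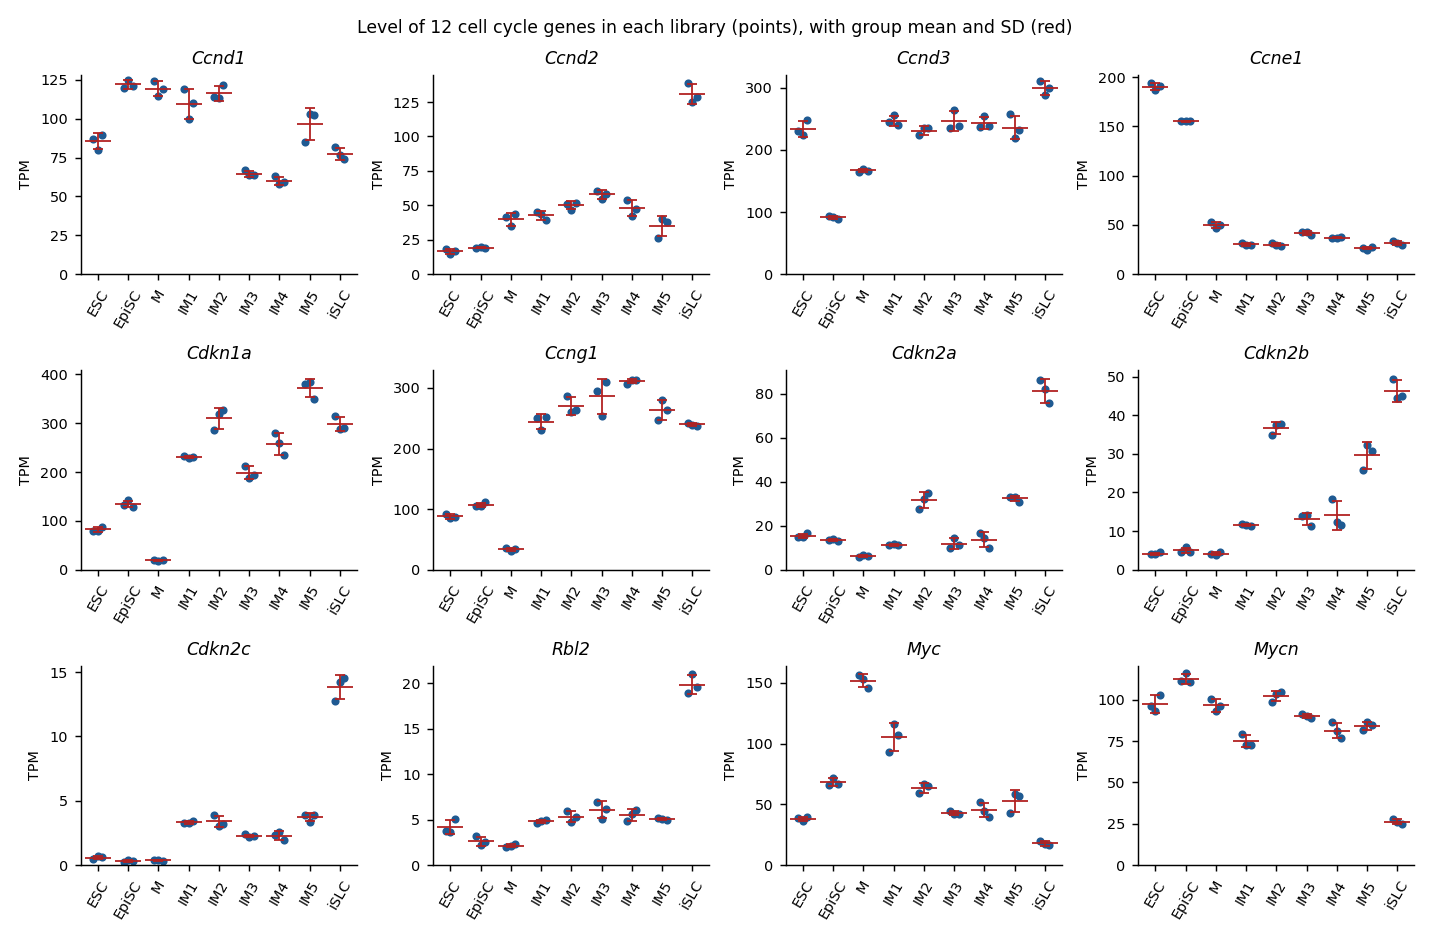
TPM (vertical axis, from 0) of 12 of the genes in each of the 27 libraries (blue points) by group (horizontal axis), with group mean and SD in red. Cdkn1a and Ccng1 are lowest in M, at 19.4 ± 1.4 and 33.5 ± 2.1 TPM, and Cdkn2a, Cdkn2b, Cdkn2c, Rbl2 and Ccnd2 are highest in iSLC.

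Of the 4 CDK genes, only Cdk6 was DE in any comparison. Cdk1, the mitotic kinase, had a TPM of 320.2, 329.5 and 322 in ESC, 266, 277 and 291 in EpiSC and 389, 408 and 374 in M. Cdk1 TPM was then 376, 357 and 392 in IM1, 392, 405 and 379 in IM2, 439.8, 418 and 439 in IM3, 408, 439 and 452 in IM4, 376, 379 and 373 in IM5 and 226, 234 and 229.8 in iSLC. Its iSLC libraries lay below all others, with a log2 fold change of -0.85 against IM3 that missed the fold minimum. Cdk4 was the most abundant of the 48 genes by mean TPM, from 728 ± 12 TPM in ESC to 1461 ± 84 TPM in IM3, and 19.7% of its exon bases overlap Tspan31. Cdk2, the partner of the E-type and A-type cyclins, ranged from 61.9 to 83.9 TPM over all 27 libraries. Cdk6 TPM was 11.8, 11.7 and 15.7 in ESC, 28.9, 27.8 and 27.1 in EpiSC and 13.9, 9.67 and 14.1 in M. Cdk6 TPM was then 11.2, 10.3 and 10.1 in IM1, 9.51, 10.4 and 8.94 in IM2, 6.75, 8.34 and 6.41 in IM3, 6.17, 6.3 and 6.53 in IM4, 5.63, 9.36 and 8.19 in IM5 and 10.4, 10.6 and 10.7 in iSLC. Its EpiSC libraries lay above all others. By its counts, Cdk6 fell from M to IM1 (log2 fold change -1.11 ± 0.079 (SE), adjusted p = 1.48e-12) and to IM3 (log2 fold change -1.13 ± 0.08 (SE), adjusted p = 1.64e-12), but the TPM of M and IM1 overlap. The mean effective length that RSEM assigned to Cdk6 was 4763 bases in EpiSC, 9636 in M and 5691 in IM1, so the steps between these groups differ in size between its counts and its TPM. With an effective length offset the log2 fold change of Cdk6 was -0.35 in IM1 against M, no longer DE, and -1.23 in M against EpiSC. Cdk6 was the only gene that met the count minimum whose TPM ratio and fold from counts differed by over 1.5 times. Cdk4 made up at least 96.8% of the summed TPM of Cdk4 and Cdk6 in every group mean.

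The CDK inhibitors held the largest change of the 48 genes, that of Cdkn1a from M to IM1. Cdkn1a (p21, GRCm38 chr17:29090976-29100727), a CIP/KIP inhibitor and the best known p53 target, had a TPM of 80, 79.7 and 87.9 in ESC, 134, 142 and 128 in EpiSC and 20.6, 17.9 and 19.5 in M. Cdkn1a TPM was then 234, 229 and 230.5 in IM1, 285, 318 and 327 in IM2, 213, 187 and 195 in IM3, 279, 259.6 and 235 in IM4, 379.5, 385 and 350.4 in IM5 and 314, 288 and 291 in iSLC. The 3 M libraries lay far below every other library, and those of IM5 lay above all others. Cdkn1a fell from EpiSC to M (log2 fold change -2.87 ± 0.071 (SE), adjusted p = 4.02e-22) and rose from M to IM1 (log2 fold change 3.45 ± 0.072 (SE), adjusted p = 1.12e-23) and to IM3 (log2 fold change 3.14 ± 0.071 (SE), adjusted p = 5.47e-23). It was also the only gene of the 48 whose adjusted p passed in IM4 against IM3, where CHIR99021 was added (log2 fold change 0.41 ± 0.064 (SE), adjusted p = 0.000315), below the fold minimum and without overlap. Cdkn1b (p27), which holds cells in G1 and G0, had a TPM of 10.4, 11.2 and 11.3 in ESC, 12.3, 12.2 and 11.4 in EpiSC and 19.4, 18.1 and 18.3 in M. Cdkn1b TPM was then 20.6, 21.3 and 22.4 in IM1, 22.2, 23.7 and 21.2 in IM2, 23.5, 23.4 and 22.2 in IM3, 19.7, 22 and 19.4 in IM4, 22.4, 21.8 and 20 in IM5 and 42.2, 42.4 and 41.4 in iSLC. Its iSLC libraries stood apart above all others, with a log2 fold change of 0.95 against IM3 that lay just under the fold minimum and passed it with a GC offset (1.29). Cdkn3, a phosphatase that acts on CDKs, had a TPM of 8.56, 7.1 and 9.92 in ESC, 12.4, 12.1 and 12.6 in EpiSC and 15.6, 16.6 and 14.1 in M. Cdkn3 TPM was then 21.5, 19.4 and 23.6 in IM1, 18.1, 17.8 and 16.8 in IM2, 15.9, 16.1 and 17.4 in IM3, 13.6, 17.1 and 12.9 in IM4, 13.4, 15.7 and 14 in IM5 and 14.7, 14.6 and 15.4 in iSLC. Its IM1 libraries were the highest and those of ESC the lowest, and it was not DE in any comparison.

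Of the INK4 inhibitors, Cdkn2a and Cdkn2b are neighbours on chromosome 4 (GRCm38, chr4:89274471-89294653 and chr4:89306299-89311039, both on the minus strand). Cdkn2a also encodes p19Arf from a different reading frame, and its gene-level value joins both products. Cdkn2a TPM was 14.8, 14.7 and 16.6 in ESC, 13.6, 13.8 and 13.1 in EpiSC and 5.63, 6.61 and 6.03 in M. Cdkn2a TPM was then 11.1, 11.8 and 11.1 in IM1, 27.6, 32.4 and 35 in IM2, 9.85, 14.6 and 11.1 in IM3, 16.6, 14.4 and 10 in IM4, 33.1, 33.2 and 30.9 in IM5 and 86.3, 82 and 75.6 in iSLC. The M libraries were the lowest and those of iSLC the highest. Cdkn2b (p15), a known target of TGF-beta signals, had a TPM of 4.07, 3.99 and 4.47 in ESC, 4.5, 5.82 and 4.7 in EpiSC and 4.17, 3.84 and 4.48 in M. Cdkn2b TPM was then 11.9, 11.5 and 11.4 in IM1, 34.9, 37.5 and 37.8 in IM2, 14, 14.2 and 11.2 in IM3, 18.3, 12.4 and 11.5 in IM4, 25.7, 32.3 and 30.8 in IM5 and 49.4, 44.3 and 45.1 in iSLC. For both genes the 2 IM groups with Activin A, IM2 and IM5, lay above IM1, IM3 and IM4 without overlap, and iSLC lay above all. The media of iSLC and EpiSC held Activin A too. For Cdkn2a, EpiSC stood at 13.1 to 13.8 TPM, above IM1 and within the range of IM3 and of IM4. For Cdkn2b, EpiSC stood at 4.5 to 5.82 TPM, below IM1, IM3 and IM4. In iSLC the part of Activin A cannot be told apart from the other changes. With Activin A, Cdkn2a rose in IM2 against IM3 (log2 fold change 1.49 ± 0.14 (SE), adjusted p = 2.55e-09) and in IM5 against IM4 (log2 fold change 1.33 ± 0.13 (SE), adjusted p = 8.39e-09). Cdkn2b rose in IM2 against IM3 (log2 fold change 1.53 ± 0.12 (SE), adjusted p = 6.24e-11) and in IM5 against IM4 (log2 fold change 1.14 ± 0.11 (SE), adjusted p = 6.93e-09). With a GC offset the latter log2 fold change was 0.98, under the fold minimum. These 2 genes were the only ones of the 48 that were DE with Activin A in either comparison, and both comparisons cross the split in red blood cell genes and GC trend. From IM3 to iSLC, Cdkn2a rose (log2 fold change 2.82 ± 0.14 (SE), adjusted p = 4.99e-16), as did Cdkn2b (log2 fold change 1.85 ± 0.12 (SE), adjusted p = 9.69e-14). Cdkn2a had fallen from EpiSC to M (log2 fold change -1.25 ± 0.15 (SE), adjusted p = 3.9e-08), and Cdkn2b rose from M to IM1 (log2 fold change 1.39 ± 0.13 (SE), adjusted p = 4.01e-10) and to IM3 (log2 fold change 1.47 ± 0.13 (SE), adjusted p = 2.36e-10). Cdkn2c (p18) TPM was 0.47, 0.69 and 0.64 in ESC, 0.27, 0.43 and 0.3 in EpiSC and 0.41, 0.37 and 0.35 in M. Cdkn2c TPM was then 3.28, 3.28 and 3.45 in IM1, 3.92, 3.08 and 3.23 in IM2, 2.39, 2.23 and 2.24 in IM3, 2.32, 2.62 and 1.96 in IM4, 3.93, 3.35 and 3.89 in IM5 and 12.8, 14.2 and 14.5 in iSLC. It was under 1 TPM in all 9 libraries of ESC, EpiSC and M, between 1.96 and 3.93 TPM in the IM libraries and between 12.8 and 14.5 TPM in iSLC. It rose from M to IM1 (log2 fold change 3.16 ± 0.16 (SE), adjusted p = 1.12e-15) and to IM3 (log2 fold change 2.19 ± 0.17 (SE), adjusted p = 1.7e-11), and from IM3 to iSLC (log2 fold change 3.03 ± 0.13 (SE), adjusted p = 1.54e-17). With only the M and IM3 libraries in the fit Cdkn2c did not meet the count minimum. Cdkn2d (p19Ink4d) lay between 14 and 14.4 TPM in M and between 29.6 and 32.4 TPM in IM1 and rose (log2 fold change 1.06 ± 0.077 (SE), adjusted p = 2.33e-12), but with a GC offset its log2 fold change was 0.85. In the INK4 mix, Cdkn2d was 48.1% ± 0.29 of the summed TPM in ESC and 20.3% ± 0.6 in iSLC, and Cdkn2a was 20.4% ± 3.5 in IM3 and 45.8% ± 1.4 in iSLC. Over the 7 inhibitors, 4 rose and 0 fell from M to IM1 (median log2 fold change 1.06), and 3 rose and 0 fell from IM3 to iSLC (median 0.95). Of all genes, 9.72% rose and 5.94% fell from M to IM1 (median 0.0016), and 10.3% and 8.92% from IM3 to iSLC (median 0).

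Cdkn1a and Ccng1 were read beside 17 other known targets of p53. From EpiSC to M, 1 of the 17 rose and 8 fell (median log2 fold change -0.99, against -0.06 for all genes), where 6.79% and 7.72% of all genes did. With a GC offset, or with only the groups compared in the fit, 7 of the 17 were DE. The largest falls were of the death gene Pmaip1 (-2.64 ± 0.084, SE) and the receptor gene Eda2r (-2.22 ± 0.098), and the gene that rose was Sesn1 (1.27 ± 0.063), which limits growth signals and is also known as a FoxO target. From M to IM1, 11 rose and 0 fell (median 1.13), and from M to IM3, 10 rose and 0 fell (median 1.09). Of all genes, 9.72% and 9.26% rose in these comparisons. Eda2r (3.78 ± 0.099 in IM1 and 4.25 ± 0.10 in IM3) and the kinase gene Plk2 (3.49 ± 0.061 and 3.75 ± 0.061) rose most. The comparisons share the M libraries, so the low level in M enters all 3. M and IM3 lie on the same side of the split in red blood cell genes (42.4 to 80 and 21.3 to 74.4 summed TPM), and 10 of the 17 were DE in IM3 against M with a GC offset as well. Endothelial genes were near 0 in M and present in IM1 and IM3, and their part in the rise was not tested. In each comparison among IM groups at most 2 of the 17 were DE, and from IM3 to iSLC 2 rose and 2 fell (all genes, 10.3% and 8.92%), with 3 DE under a GC offset.

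**Figure D5:**
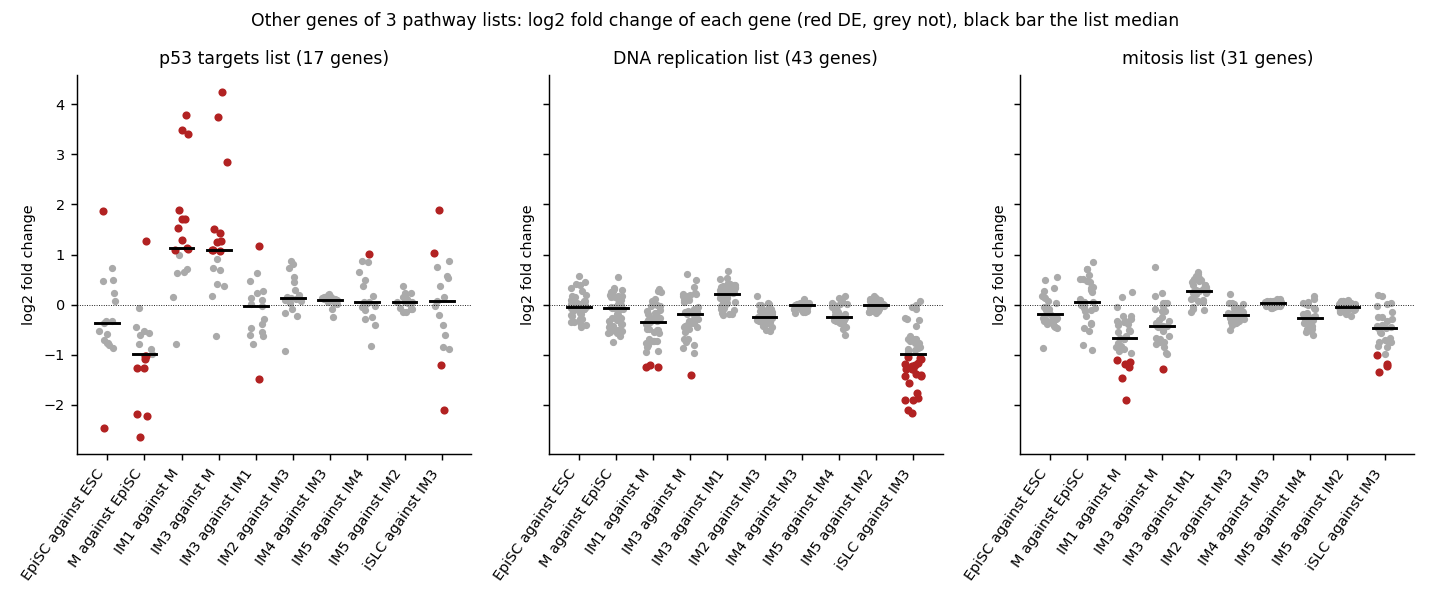
Log2 fold change (vertical axis) of each gene of 3 lists of other pathway genes (points, red where DE) in each comparison (horizontal axis); the black bar is the median of the list. The p53 targets lie mostly below 0 in M against EpiSC (median -0.99) and above it in IM1 and IM3 against M, and the replication genes lie lowest in iSLC against IM3 (median -0.998).

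Among the pocket proteins, which hold E2F factors in check, only Rbl2 was DE in any comparison. Rbl2 (p130), the member known from resting cells, had a TPM of 3.8, 3.65 and 5.12 in ESC, 3.17, 2.21 and 2.56 in EpiSC and 2.05, 2.08 and 2.32 in M. Rbl2 TPM was then 4.6, 4.87 and 4.94 in IM1, 5.92, 4.73 and 5.33 in IM2, 6.96, 5.11 and 6.2 in IM3, 4.83, 5.65 and 6.06 in IM4, 5.16, 5.08 and 5.02 in IM5 and 19, 21 and 19.5 in iSLC. Its lowest libraries were those of M and EpiSC, which overlap, and its iSLC libraries lay far above all others. It rose from M to IM1 (log2 fold change 1.09 ± 0.087 (SE), adjusted p = 1.33e-11), from M to IM3 (log2 fold change 1.37 ± 0.088 (SE), adjusted p = 1.98e-13) and from IM3 to iSLC (log2 fold change 1.93 ± 0.08 (SE), adjusted p = 1.11e-17). Rb1, the retinoblastoma gene, had a TPM of 7.49, 6.76 and 7.76 in ESC, 4.3, 3.7 and 4.41 in EpiSC and 5.02, 4.56 and 4.8 in M. Rb1 TPM was then 6.01, 7.31 and 7.9 in IM1, 8.25, 7.46 and 7.76 in IM2, 10.5, 5.84 and 7.75 in IM3, 6.92, 6.62 and 6.41 in IM4, 6.23, 6.96 and 5.84 in IM5 and 7.36, 6.97 and 8.23 in iSLC. Its IM3 libraries were spread so widely that they overlapped most groups. Rbl1 (p107), known from dividing cells, had a TPM of 11.5, 11.4 and 11.5 in ESC, 10.3, 9.8 and 9.9 in EpiSC and 17.5, 15 and 18.8 in M. Rbl1 TPM was then 12.8, 12.4 and 12.2 in IM1, 14.5, 14.1 and 12.9 in IM2, 15.2, 14.4 and 15.8 in IM3, 14.7, 14.9 and 15.3 in IM4, 12, 13.4 and 14.4 in IM5 and 11.8, 12.4 and 11.5 in iSLC. Its EpiSC libraries were the lowest, and those of M overlapped IM3 and IM4 at the top. Of the summed TPM of the pocket proteins, Rbl1 made up 71% ± 1.6 in M and 30.4% ± 0.91 in iSLC, and Rbl2 8.98% ± 0.64 and 50.5% ± 1.3. Genes on the other strand overlap 21% of the exon bases of Rbl2 and 14.9% of those of Rb1.

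Of the activating E2Fs, E2f1 was not DE in any comparison (16.4 to 26.8 TPM over the 27 libraries), while E2f3 lay between 26.9 and 28.4 TPM in EpiSC and between 56.3 and 57.6 TPM in M and rose (log2 fold change 1.04 ± 0.046 (SE), adjusted p = 6.97e-17). With an effective length offset this log2 fold change was 0.98. E2f2 was the least of them, with a TPM of 2.11, 1.64 and 1.9 in ESC, 1.08, 0.88 and 0.97 in EpiSC and 0.75, 0.63 and 0.68 in M. E2f2 TPM was then 0.8, 1.19 and 1.27 in IM1, 0.86, 0.97 and 1.1 in IM2, 1.11, 1.49 and 0.98 in IM3, 0.92, 1.12 and 1.35 in IM4, 1.15, 0.95 and 0.92 in IM5 and 2.22, 2.1 and 1.64 in iSLC. Its highest libraries were those of ESC and iSLC, which overlap. The repressive E2f4 and E2f5, which bind p107 and p130, were both DE from EpiSC to M. E2f5 TPM was 17.8, 20.4 and 19.1 in ESC, 22.7, 22.3 and 23.8 in EpiSC and 70.1, 66 and 67 in M. E2f5 TPM was then 46.5, 45.2 and 49.6 in IM1, 41.7, 41 and 39.1 in IM2, 44.9, 40.5 and 48 in IM3, 41.4, 43.8 and 44.5 in IM4, 40.1, 39.5 and 40.1 in IM5 and 13.8, 15.7 and 14 in iSLC. It rose from EpiSC to M (log2 fold change 1.48 ± 0.07 (SE), adjusted p = 3.31e-16), while E2f4 fell (log2 fold change -1.07 ± 0.044 (SE), adjusted p = 1.59e-17). E2f4 lay between 214 and 226 TPM in EpiSC and between 111 and 113 TPM in M. With a GC offset the log2 fold change of E2f4 was -0.97. From IM3 to iSLC both E2f5 (log2 fold change -1.59 ± 0.074 (SE), adjusted p = 1.35e-16) and E2f4 (log2 fold change -1.15 ± 0.045 (SE), adjusted p = 3.19e-18) fell, and so did E2f6, a repressor that acts without pocket proteins (log2 fold change -1.03 ± 0.04 (SE), adjusted p = 3.45e-18). The log2 fold change of E2f6 was -0.87 with a GC offset. The atypical E2Fs, which repress E2F targets, are E2f7 and E2f8. E2f7 had a TPM of 11.9, 9.18 and 11 in ESC, 13.6, 13.8 and 13.4 in EpiSC and 16.1, 13.3 and 17 in M. E2f7 TPM was then 15.8, 15.9 and 15.3 in IM1, 16.6, 16.1 and 15.8 in IM2, 16.6, 15.4 and 15.6 in IM3, 14.7, 12.6 and 14.2 in IM4, 12.1, 16 and 15.8 in IM5 and 12.5, 12.2 and 12.3 in iSLC. It was not DE in any comparison. E2f8 lay between 20.4 and 21.8 TPM in EpiSC and between 8.47 and 10.9 TPM in M, and it fell (log2 fold change -1.21 ± 0.076 (SE), adjusted p = 1.35e-13). From M to IM1 it rose (log2 fold change 1.02 ± 0.076 (SE), adjusted p = 4.14e-12), but the log2 fold change was 0.97, 0.97 and 0.94 without replicate 2 or 3 of M or replicate 1 of IM1, under the fold minimum. Genes on the other strand overlap 11.2% of the exon bases of E2f8. Its share in the summed TPM with E2f7 was 60.5% ± 0.53 in EpiSC and 38.3% ± 2.5 in M.

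The Cdc25 phosphatases remove the block that Wee1 kinases set on CDKs. From IM3 to iSLC 1 of the 3 fell, as did 8.92% of all genes. Cdc25a, which acts in G1 and S phase, had a TPM of 51, 50.4 and 53.2 in ESC, 56.8, 57.9 and 57.9 in EpiSC and 52.8, 45.4 and 53 in M. Cdc25a TPM was then 63.6, 59.2 and 63.5 in IM1, 63.7, 65.3 and 63.1 in IM2, 74.8, 66.3 and 68.3 in IM3, 69, 68.2 and 68.1 in IM4, 54.9, 63.9 and 63 in IM5 and 24.4, 24.7 and 24.1 in iSLC. Its iSLC libraries lay far below all others (log2 fold change -1.49 ± 0.042 (SE), adjusted p = 3.19e-21). Cdc25b, which acts in G2, was highest in iSLC (29.5 ± 1.5 TPM against 14.8 ± 0.83 in IM3, log2 fold change 0.89, under the fold minimum), and Cdc25c was not DE in any comparison.

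The 3 replication genes all fell from IM3 to iSLC, and their iSLC libraries lay below all other libraries of the series. Mcm5, a subunit of the replicative helicase, had a TPM of 271, 263 and 272 in ESC, 287, 289 and 270 in EpiSC and 189, 205 and 200.1 in M. Mcm5 TPM was then 180.1, 183 and 177 in IM1, 153, 165 and 163 in IM2, 205, 204 and 201 in IM3, 183, 188 and 193 in IM4, 144, 151 and 154 in IM5 and 59.7, 62.2 and 59.5 in iSLC. It fell from IM3 to iSLC (log2 fold change -1.75 ± 0.053 (SE), adjusted p = 1.81e-20). Mcm2, of the same helicase, lay between 146 and 164 TPM in IM3 and between 54.1 and 57.9 TPM in iSLC and fell (log2 fold change -1.45 ± 0.044 (SE), adjusted p = 1.68e-20). Pcna, the sliding clamp of the polymerases, lay between 406 and 428 TPM in IM3 and between 150.1 and 162 TPM in iSLC and fell (log2 fold change -1.39 ± 0.046 (SE), adjusted p = 8.79e-20), and with a GC offset its log2 fold change was -0.99. Of 43 other DNA replication genes, 0 rose and 21 fell in this comparison (42 of the 43 had a negative log2 fold change, with a median of -0.998). The largest falls were of Cdc6 (-2.17 ± 0.045, SE) and Orc2 (-2.11 ± 0.056), both of which license origins. Of all genes, 8.92% fell. Genes on the other strand overlap 29.8% of the exon bases of Orc2, 84.2% of those of Fen1 and 67.3% of those of Gins2, all among the 21, and reads of such pairs may not be told apart. With a GC offset 18 of them were DE, and without single replicates 21 or 22 were. In each of the other comparisons at most 3 of the 43 were DE.

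From IM3 to iSLC, 2 of the 7 mitotic genes fell and 0 rose. Top2a, which untangles sister chromatids, had a TPM of 507, 434 and 477 in ESC, 360.1, 355 and 364 in EpiSC and 571, 468 and 566 in M. Top2a TPM was then 302, 294 and 319 in IM1, 392, 356 and 353 in IM2, 457, 426 and 452 in IM3, 432, 439.6 and 480.4 in IM4, 332, 349.8 and 353 in IM5 and 193, 209.7 and 197 in iSLC. Its iSLC libraries were the lowest of all, and it fell from IM3 to iSLC (log2 fold change -1.13 ± 0.06 (SE), adjusted p = 2.36e-15). Bub1, a spindle checkpoint kinase, had a TPM of 102, 96.7 and 99.4 in ESC, 89.5, 87.2 and 90.5 in EpiSC and 122, 110.3 and 127 in M. Bub1 TPM was then 50.4, 47 and 51.6 in IM1, 62.9, 56.6 and 53.7 in IM2, 70.4, 68.2 and 81.5 in IM3, 69, 69.3 and 76.4 in IM4, 47, 52.6 and 55.8 in IM5 and 29.2, 32 and 30.3 in iSLC. Here too the iSLC libraries were the lowest of all, and Bub1 fell from IM3 to iSLC (log2 fold change -1.26 ± 0.059 (SE), adjusted p = 1.71e-16). Mki67, the widely used marker of cycling cells, had a TPM of 55.6, 45.1 and 51 in ESC, 45.3, 45.5 and 46.8 in EpiSC and 90.3, 66.2 and 90.8 in M. Mki67 TPM was then 41, 40.2 and 41.4 in IM1, 49.3, 45.1 and 44 in IM2, 72.5, 69.2 and 74.3 in IM3, 68, 67.8 and 74.4 in IM4, 31.2, 42.9 and 45.9 in IM5 and 76.7, 79.8 and 76.3 in iSLC. The iSLC libraries of Mki67 lay above those of IM3 and within the range of M. Its log2 fold change from IM3 to iSLC was 0.11, and that of Aurkb, a kinase of the chromosomal passenger complex, was 0.09. With a GC offset the values of Top2a and Bub1 were -0.77 and -0.83, so that neither passed the fold minimum. Aurka, a spindle pole kinase, came close to the minimum (log2 fold change -0.96 ± 0.042 (SE), adjusted p = 2.79e-17), and the log2 fold changes of Plk1 and Foxm1 were -0.42 and -0.31. Of 31 other mitosis genes, 0 rose and 4 fell (median -0.47), led by Ccnf (-1.34 ± 0.048, SE) and Mad2l1 (-1.23 ± 0.071), and 1 was DE with a GC offset. Such a share, 4 of 31, is near that of all genes, of which 8.92% fell. From M to IM1 all 7 mitotic genes had a negative log2 fold change (median -0.85). Of these, Bub1 (log2 fold change -1.35 ± 0.058 (SE), adjusted p = 3.94e-17) and Mki67 (log2 fold change -1.11 ± 0.083 (SE), adjusted p = 4.65e-12) fell, and with a GC offset the value of Bub1 was -0.99. Of the 31 other mitosis genes 0 rose and 6 fell (median -0.68), led by Cenpf (-1.90 ± 0.084) and Nusap1 (-1.46 ± 0.061), where 5.94% of all genes fell. From M to IM3, 0 of these 7 and 1 of the 31 were DE.

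Promoter sequence, which the choice of genes did not use, was read for the genes that fell together. RefSeq windows of 250 bases before to 50 bases after a transcription start (GRCm38.p6) were matched by symbol to 37 of the 48 genes, and were searched on both strands for the core of an E2F site (TTTNNCGC), the cell cycle homology region element of G2 and M genes (TTTGAA, or its variant TTTAAA) and the CCAAT box (CCAAT). Ccna2, Ccnd1, Ccnd2, Ccne2, Rb1, E2f4, E2f5, Cdc25c, Aurkb, Foxm1 and Myc had no match by symbol. The E2F site was in 5.93% of the 27025 genes with a window, TTTGAA in 20.2%, TTTAAA in 14.9% and CCAAT in 41.1%. Of 34 other DNA replication genes with a window, 14 (41.2%) held the E2F site and 5 (14.7%) TTTGAA. Of 27 other mitosis genes, 3 (11.1%) held the E2F site and 19 (70.4%) TTTGAA. Of the 8 listed genes that fell from IM3 to iSLC and had a window, 3 (37.5%) held the E2F site, 3 (37.5%) TTTGAA and 6 (75%) CCAAT. Of all 37 listed genes with a window, 11 (29.7%) held the E2F site, 14 (37.8%) TTTGAA and 26 (70.3%) CCAAT. The shares among the 8 are thus near those of the whole list. Of the 5 with a window that rose from IM3 to iSLC, 1 held the E2F site, 2 TTTGAA and 2 CCAAT. A match is only a run of letters and says nothing of binding. The stretches printed are the 190 bases before the start, 5′ to 3′ on the strand of the gene, with matches to any of these motifs in capitals. They are shown for 7 of the 8 genes that fell, and not for E2f6, whose stretch held none of these motifs. They are also shown for Ccnb2 and Mki67, which fell from M to IM1 and were not lower in iSLC than in IM3. They lie at chr9:109875389-109875578 (plus strand) for Cdc25a, chr8:75109319-75109508 (plus strand) for Mcm5, chr12:12941837-12942026 (minus strand) for Mycn, chr6:88898781-88898970 (minus strand) for Mcm2, chr2:132253181-132253370 (minus strand) for Pcna, chr11:99024190-99024379 (minus strand) for Top2a, chr2:127831860-127832049 (minus strand) for Bub1, chr9:70421555-70421744 (minus strand) for Ccnb2 and chr7:135716380-135716569 (minus strand) for Mki67.
Cdc25a: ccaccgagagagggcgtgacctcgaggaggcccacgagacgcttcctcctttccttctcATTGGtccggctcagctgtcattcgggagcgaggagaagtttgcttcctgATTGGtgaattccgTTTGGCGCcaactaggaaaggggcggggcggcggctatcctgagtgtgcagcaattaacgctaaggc
Mcm5: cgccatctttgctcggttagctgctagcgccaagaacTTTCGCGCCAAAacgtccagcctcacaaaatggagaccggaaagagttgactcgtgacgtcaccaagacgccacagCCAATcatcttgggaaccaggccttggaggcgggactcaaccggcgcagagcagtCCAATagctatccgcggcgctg
Mycn: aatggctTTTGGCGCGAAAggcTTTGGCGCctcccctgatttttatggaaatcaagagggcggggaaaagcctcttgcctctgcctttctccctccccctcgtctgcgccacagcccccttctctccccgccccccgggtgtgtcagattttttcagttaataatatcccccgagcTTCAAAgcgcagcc
Mcm2: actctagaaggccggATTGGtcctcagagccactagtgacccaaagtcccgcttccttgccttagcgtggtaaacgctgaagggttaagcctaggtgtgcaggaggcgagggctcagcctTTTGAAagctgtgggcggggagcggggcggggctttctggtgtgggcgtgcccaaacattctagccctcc
Pcna: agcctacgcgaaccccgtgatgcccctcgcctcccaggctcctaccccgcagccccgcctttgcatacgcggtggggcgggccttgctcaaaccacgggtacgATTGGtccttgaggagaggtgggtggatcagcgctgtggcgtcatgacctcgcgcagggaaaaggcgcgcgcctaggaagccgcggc
Top2a: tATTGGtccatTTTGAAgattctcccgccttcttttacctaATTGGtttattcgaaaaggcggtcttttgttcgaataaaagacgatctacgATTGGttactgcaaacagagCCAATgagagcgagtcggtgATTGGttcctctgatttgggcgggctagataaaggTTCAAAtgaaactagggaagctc
Bub1: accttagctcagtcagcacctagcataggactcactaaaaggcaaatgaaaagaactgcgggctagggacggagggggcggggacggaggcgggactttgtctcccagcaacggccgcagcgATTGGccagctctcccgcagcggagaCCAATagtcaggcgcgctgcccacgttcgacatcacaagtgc
Ccnb2: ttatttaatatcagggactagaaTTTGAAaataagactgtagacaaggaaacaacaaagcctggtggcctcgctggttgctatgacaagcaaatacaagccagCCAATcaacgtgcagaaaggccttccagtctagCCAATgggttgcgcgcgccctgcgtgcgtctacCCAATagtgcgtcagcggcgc
Mki67: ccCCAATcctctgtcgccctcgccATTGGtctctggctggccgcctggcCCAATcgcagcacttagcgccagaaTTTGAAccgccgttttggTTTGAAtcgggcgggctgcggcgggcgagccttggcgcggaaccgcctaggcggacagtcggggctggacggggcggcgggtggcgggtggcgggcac

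Within these stretches, Cdc25a, Mcm5 and Mycn held the E2F site. In Mcm5 and in Mycn matches on opposite strands share letters, so they are not separate sites. Mcm2, Mycn, Top2a, Ccnb2 and Mki67 held TTTGAA, and Pcna and Bub1 held only CCAAT among the motifs searched. All genes shown other than Mycn held at least 1 CCAAT, while E2f6, which also fell and is not shown, held none. Ccnb2, which did not fall in iSLC, held the same kinds of motif as Top2a, which did.

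The Myc factors, which drive growth and repress inhibitors such as Cdkn2b, were high at different stages. Myc TPM was 39.2, 36.4 and 39.5 in ESC, 65.7, 72 and 67.2 in EpiSC and 156, 153 and 146 in M. Myc TPM was then 93.3, 116 and 107 in IM1, 59.1, 66.5 and 65.6 in IM2, 44.7, 42.5 and 42.1 in IM3, 51.8, 44.2 and 40.1 in IM4, 42.9, 59 and 57 in IM5 and 19.8, 17.5 and 16.4 in iSLC. Its M libraries lay above all others and its iSLC libraries below all others. Myc rose from EpiSC to M (log2 fold change 1.07 ± 0.086 (SE), adjusted p = 1.74e-11), fell from M to IM3 (log2 fold change -2.08 ± 0.09 (SE), adjusted p = 3.96e-17) and fell again from IM3 to iSLC (log2 fold change -1.27 ± 0.092 (SE), adjusted p = 1.73e-12). It was the only gene of the 48 that was DE with retinoic acid (log2 fold change -1.41 ± 0.088 (SE), adjusted p = 4.94e-13), its IM1 libraries lying above those of all other IM groups. Mycn TPM was 96, 93 and 103 in ESC, 111, 116 and 111 in EpiSC and 101, 92.9 and 95.9 in M. Mycn TPM was then 79.5, 72.9 and 72.9 in IM1, 98.7, 104 and 104 in IM2, 91.5, 89.9 and 88.9 in IM3, 86.3, 81.1 and 76.7 in IM4, 81.6, 86.4 and 84.6 in IM5 and 27.9, 25.9 and 25.1 in iSLC. It was at least 72.9 TPM in every library of the 8 groups before iSLC and fell there (log2 fold change -1.76 ± 0.052 (SE), adjusted p = 9.01e-21). The share of Mycn in the summed TPM of both genes was 71.7% ± 0.67 in ESC, 38.8% ± 0.98 in M and 67.7% ± 0.41 in IM3. Of 9 other genes of the Myc network, 5 rose and 0 fell from IM3 to iSLC (median 1.03), where 10.3% of all genes rose. They include Mxd4 (2.98 ± 0.062, SE) and Mxd3 (2.21 ± 0.13), whose proteins compete with Myc for its partner Max. Mycl, itself a gene of the Myc family, was also among the 5 (1.56 ± 0.10).

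Other members of the cyclin and CDK families, which mostly serve transcription, were also counted. Of 25 such genes, 4 rose and 0 fell from EpiSC to M (all genes, 6.79% and 7.72%), among them Cdk14 (2.14 ± 0.065, SE), a kinase of the cell membrane, and Ccno (1.69 ± 0.13), known from multiciliated cells. From M to IM1, 1 rose and 3 fell (all genes, 9.72% and 5.94%), with Ccno lowest (-5.72 ± 0.18), and with a GC offset 0 rose and 2 fell. From IM3 to iSLC 3 rose and 3 fell, shares close to those of all genes (10.3% and 8.92%), with Ccnl2 (2.02 ± 0.046) and Cdk19 (2.01 ± 0.059) highest and Cdk18 (-1.76 ± 0.075) and Ccnj (-1.67 ± 0.072) lowest. Of 18 regulators of CDKs and partners of E2F, 1 rose and 4 fell from IM3 to iSLC (all genes, 10.3% and 8.92%), and with a GC offset 0 rose and 3 fell. Mybl2, which drives G2 genes with the MuvB complex, fell (-1.57 ± 0.068), and so did the MuvB subunit Lin54 (-1.45 ± 0.065), while Cdkn1c, the third CIP/KIP inhibitor, rose (1.24 ± 0.11). Cdkn1c had risen from M to IM1 (3.67 ± 0.12) and was lower in IM3 than in IM1 (-2.25 ± 0.11). A gene on the other strand overlaps 30.7% of its exon bases.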

How the data were processed

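RNA-seq of 27 libraries (9 groups of 3) was analysed from the RSEM gene tables. Per the study's methods and the submitters' processing notes, the authors trimmed reads with cutadapt 1.9.1, aligned them with STAR 2.5.2a to GRCm38 and estimated abundance with RSEM 1.3.0. Whether counting used strand is not given in the sources used here. The deposited expected counts are not whole and were rounded. The deposited TPM and FPKM were scaled by the authors per effective gene length and library size. TPM gives the levels, and FPKM served as an alternative.

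Genes passing filterByExpr (20839 of 48795) were fitted with edgeR 4.0.16 in R 4.3.3 (TMM, glmQLFit and glmQLFTest, a coefficient per group over all 27 libraries, Benjamini-Hochberg over all genes tested). DE genes changed at least 2-fold with an adjusted p no higher than 0.01, and their mean normalized read count reached 100 both over the 27 libraries and in either group of the comparison. An adjusted p of at most 0.05 was used over all 9 groups and for the interaction of Activin A and CHIR99021. Log2 fold changes are from the counts, so they can differ from TPM ratios. Errors are SE for fold changes and SD over 3 libraries for levels. The labels give only replicate numbers, so p-values measure the spread between these libraries. No replicates were duplicates (chi-square per degree of freedom 3.36 to 46.9). Counting error alone puts a count of 0 at up to 3 counts. Exact permutation of 3 libraries against 3 cannot go below p = 0.1, so shares and role levels were not tested.

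The members, the pathway lists and their tests were chosen with earlier results of these data known. All 48 genes may be named. Values in every library are given for a fixed set of 22 genes and for up to 3 rises and 3 falls per comparison, the largest among those DE without overlap of libraries. From each pathway list, up to 2 DE rises and 2 DE falls with the largest change were named, and Mycl, Fen1 and Gins2 in addition. Alternatives were DESeq2 1.42.0 (size factors and Wald test), no low-count filter, no fold or count minimum, an adjusted p of at most 0.05, fits with only the groups compared, offsets for effective length and for GC content (known for 99.54% of genes), the replicate number as a block, and fits without single replicates. Deviations of same-numbered libraries correlated above 0.1 in every pair only for IM4 with IM3 (0.213, 0.177 and 0.233), a pairing that comes from the data and not from the labels, and the block changed no call there. On simulated counts for iSLC against IM3, 100% of 200 genes changed 4-fold were called among 19790, with 0 false calls. The changed genes were well covered and all others were kept flat, so this says nothing of calls near the 2-fold minimum. RefSeq promoter windows (GRCm38.p6) were matched by symbol.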

Additional observations from a re-analysis of the deposited data

Results flagged for a closer look

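Ccnd2, the only D-type cyclin that was DE from IM3 to iSLC, was the only gene of the 48 for which the effect of Activin A differed with CHIR99021. The interaction was -0.34 on the log2 scale (SE 0.079, edgeR, adjusted p = 0.0408), against 0.624% of all genes tested that passed the same threshold of 0.05. With CHIR99021, the log2 fold change of Ccnd2 was -0.17 without Activin A (IM4 against IM3) and -0.51 with it (IM5 against IM2), and neither was DE. Ccnd2 TPM was 51.1, 46.6 and 52 in IM2, 60.7, 54.5 and 58.5 in IM3, 53.9, 42.6 and 47.2 in IM4 and 26.6, 40.2 and 37.7 in IM5. The lowest of these is replicate 1 of IM5, and without it the interaction was -0.28 with an adjusted p of 0.126. Leaving out each of the 12 libraries in turn lost the call in 8 of 12 fits. With an effective length offset the interaction was -0.23 (adjusted p = 0.563).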

How the results depend on the processing

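No call of a listed gene changed direction under any alternative. DESeq2 size factors, the Wald test of DESeq2, no low-count filter and an adjusted p of at most 0.05 left the count of DE genes among the 48 as reported in all 10 comparisons. Without the fold minimum, the counts were 30 in EpiSC against ESC, 35 in M against EpiSC, 39 in IM1 against M, 42 in IM3 against M, 24 in IM3 against IM1, 21 in IM2 against IM3, 1 in IM4 against IM3, 23 in IM5 against IM4, 6 in IM5 against IM2 and 43 in iSLC against IM3. In EpiSC against ESC, the count was 2 without a count minimum, adding Ccna1, and 2 with an effective length offset, adding Cdk6. With a GC offset, alone or with the replicate block, the count was 2 in IM3 against IM1, adding Cdkn2c, and 1 in IM5 against IM4, losing Cdkn2b. The same offset gave 9 in M against EpiSC, 9 in IM1 against M, 10 in IM3 against M and 15 in iSLC against IM3. Without a count minimum, IM2 against IM3 held 3, adding Ccna1. With an effective length offset, IM1 against M held 10, losing Cdk6, and iSLC against IM3 held 19, adding Cdc25b. With only the groups compared, IM3 against M held 8, losing Cdkn2c. The interaction of Activin A and CHIR99021 was called in 0 genes at an adjusted p of at most 0.01 and in 0 with an effective length offset. Leaving out 1 replicate at a time gave 1 to 1 DE genes in EpiSC against ESC, 10 to 10 in M against EpiSC, 10 to 11 in IM1 against M, 9 to 10 in IM3 against M, 1 to 2 in IM3 against IM1, 2 to 3 in IM2 against IM3, 0 to 0 in IM4 against IM3, 2 to 3 in IM5 against IM4, 0 to 0 in IM5 against IM2, 18 to 18 in iSLC against IM3, 0 to 1 for the interaction and 48 to 48 over the 9 groups. The cause was not tested in any of these. The replicate block left the count as reported in every comparison (18 in iSLC against IM3). Same-numbered libraries hardly deviated together over all groups (mean correlation 0.0193, against -0.0097 for other numbers). Ccna1 missed the count minimum in every comparison. Among family shares and role levels, 347 values moved by more than 1 SD under FPKM, shares of expected counts, another pseudocount or a TPM minimum, and 121 did not.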
